A study of Mus musculus with 9 samples.

Results

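Translation initiation and elongation factors, the proteins that bring ribosomes to a messenger RNA and move them along it, were examined in neutrophils sorted from mouse bone marrow. Members were the rows of the deposited table whose symbol begins with Eif or Eef and a digit, which gave 53 of the 7197 genes listed, and 0 symbols were dropped as pseudogenes. Expression was profiled by sequencing of transcript 3′ ends. The study asked how an overactive nutrient signal, carried by RagC to the kinase complex mTORC1, alters these cells.

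The control group comprised 5 libraries from Rragc+/+ mice, and the mutant group 4 libraries from heterozygous RragcS74N/+ mice, in which 1 allele of the gene for RagC carries a serine-to-asparagine substitution at residue 74. Mice of both genotypes were 2 months old. The substitution is carried in the germline, so all tissues of the mutant mice bear it, and the marrow in which these neutrophils matured was mutant as well. Neutrophils were gated on CD45, CD11b and Ly6G. The study's text describes as many control mice as there are control libraries, and more mutant mice than the mutant libraries analysed here. The labels tie no library to a mouse, and p-values measure the spread between these libraries.

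Initiation begins when eIF2, loaded with GTP and the initiator transfer RNA, joins the small ribosomal subunit together with eIF1, eIF1A, eIF5 and the large scaffold eIF3. The messenger is brought in by eIF4F, which consists of the cap-binding protein eIF4E, the scaffold eIF4G and the helicase eIF4A. Active mTORC1 phosphorylates the 4E-BP proteins, which then release eIF4E, and restrains the kinase of eEF2. mTORC1 also favours translation of messengers that begin with a run of pyrimidines, the 5′ terminal oligopyrimidine (TOP) motif, a class that includes many messengers for elongation factors and ribosomal proteins. These controls act largely on protein activity and on translation, which messenger counts do not measure.

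TOP-like runs were sought in the members' promoters because the class of messengers with this motif includes many of those for elongation factors. RefSeq promoter sequences (GRCm38.p6, which is not the assembly of the deposited counts) were matched by symbol for 43 of the 53 members. A run was taken as a C followed by at least 6 bases that are each C or T, on the sense strand alone, starting within 15 bases of an annotated transcription start. This definition was chosen after the sequences had been seen. A run was found for 12 of the 43 members, or 27.9%, against 19.98% of the 5300 tested genes with a promoter sequence and 18.2% of all 27025 symbols in the promoter table. The 6 windows shown are those of the X- and Y-linked copies of the eIF2 gamma subunit, a subunit of the eIF2B exchange factor, a subunit of eIF3 and both elongation factors that decode and translocate. Each window starts 10 bases before the run and spans 30 bases, with the run in capitals.
Eif2s3x, chrX:94212633-94212662, minus strand: cgagcattttCCTTTTCTCTCCgagcaaga
Eif2s3y, chrY:1010586-1010615, plus strand: gccacagccaCTTCCTTCTTTCgtgagcaa
Eif2b2, chr12:85219476-85219505, plus strand: cggaagttgaCCTCTCTCggcccggaagtg
Eif3f, chr7:108934401-108934430, plus strand: ctgttctaggCTCTCTCTCTTTCTCggcaa
Eef1a1, chr9:78481710-78481739, minus strand: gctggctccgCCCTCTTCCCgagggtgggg
Eef2, chr10:81176636-81176665, plus strand: cgtcagcggtCTCTTCCgccgcagccgccg
The runs of Eif2s3x and Eif2s3y are both 12 bases long and begin within 1 base of the annotated start. Relative to that start, the run begins at -5 for Eef1a1, -4 for Eif3f, 5 for Eif2b2 and 15 for Eef2. The runs of Eef1a1 and Eif3f thus begin upstream of the annotated messenger. A match describes the letters in the annotated window and does not show where transcription started in these cells.

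Reads recovered over the listed genes ranged from 1214295 to 1973957 per library. Rragc itself ranged from 61.9 to 87.6 normalised counts in Rragc+/+ and from 51.8 to 72.1 in RragcS74N/+, and a gene-level count cannot show the edited allele. The sorting markers Ptprc, Itgam and Ly6g were abundant in every library, with a summed level of 4963 to 5838 in Rragc+/+ and 4972 to 6159 in RragcS74N/+. The summed level of the erythroid markers, 6 of 8 listed, ranged from 1090 to 5585 in Rragc+/+ and from 378 to 2147 in RragcS74N/+, ranges that overlapped. At an unadjusted limma p-value under 0.05, 5 of the 6 were lower in RragcS74N/+, against 3.81% of all genes tested, while Car2 had a log2 difference of 0.58, and 0 passed the adjusted threshold. Of the lymphoid and monocyte lists, 2 of 7 B cell, 1 of 7 T and NK cell and 2 of 6 monocyte markers were listed at all. Their sums in Rragc+/+ were 90.0 to 146, 14.5 to 28.9 and 2202 to 3420, in that order. In RragcS74N/+ they were 86.2 to 132, 14.6 to 18.8 and 2211 to 3990. The monocyte sum was almost all Ly6c2, which averaged 2676 over the 9 libraries against 143 for Csf1r. A sum that rests on 1 gene does not measure how many monocytes were present. Of the monocyte genes, Csf1r had a log2 difference of -0.66 (limma adjusted p = 0.713) and Ly6c2 0.0008. Csf1r was highest in Rragc+/+ replicate 2, at 339. The eosinophil and basophil markers, 5 of 8 listed, summed to between 113 and 426 in Rragc+/+ and between 122 and 583 in RragcS74N/+. Of these 5, 4 had a log2 difference above 0, with a median of 0.89 over the list, and Prg2, an eosinophil granule protein, had 1.38 (limma unadjusted p = 0.0394, adjusted p = 0.713). Summed cell cycle markers ranged from 426 to 900 in Rragc+/+ and from 460 to 749 in RragcS74N/+. Secondary granule markers ranged from 33094.5 to 41401 and from 30560 to 43870, in the same order. Mature neutrophil markers ranged from 31437 to 38416 and from 28828 to 44723. In both neutrophil lists Rragc+/+ replicate 5 and RragcS74N/+ replicate 4 were the highest of their genotype. The part of these cells and markers in the values below was not tested.

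The members made up a small share of the reads recovered over the listed genes. They took 0.550% ± 0.0767 of recovered reads in Rragc+/+ (SD, n = 5) and 0.550% ± 0.0278 in RragcS74N/+ (SD, n = 4). The lowest share was 0.466% in Rragc+/+ replicate 2 and the highest 0.670% in Rragc+/+ replicate 1. Each of the 53 members had a read in every library, and the lowest value was 2 reads. Levels are given as normalised counts, that is, reads divided by the library's size factor, and since only the 3′ end is read they are per transcript end rather than per length. On this scale 18 members averaged at least 100 normalised counts and 9 averaged under 20. A mean of at least 10 was required for testing, which 51 members passed. The exceptions were Eif2s1, the alpha subunit of eIF2 that its kinases phosphorylate, with 2.34 to 20.1 normalised counts, and Eif2b1, the regulatory alpha subunit of eIF2B, with 2.34 to 18.8.

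No translation factor differed between genotypes past the threshold. Of 51 members tested with limma, 0 had an adjusted p-value under 0.05, where 0% of all 6673 genes tested did, and the smallest adjusted p-value among them was 0.713. At an unadjusted limma p-value under 0.05 there were 2 members against 5.81% of all genes. Both were lower in RragcS74N/+, where 3.81% of all genes were, and 0 were higher, against 2.01%. The genotypes did not overlap for 1 member, Eif6, against 1.69% of all genes in either direction and 1.02% lower in RragcS74N/+. The log2 difference was below 0 for 27 members and above 0 for 24, with 46.6% of all genes below 0. Its median was -0.04 over the members and 0.02 over all genes tested. edgeR on the recovered reads gave the same 2 members at an unadjusted p-value under 0.05, against 460 of the 6673 genes tested. DESeq2 gave 0, against 447 of 6673, and 0 members passed the adjusted threshold in either.

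**Figure D1:**
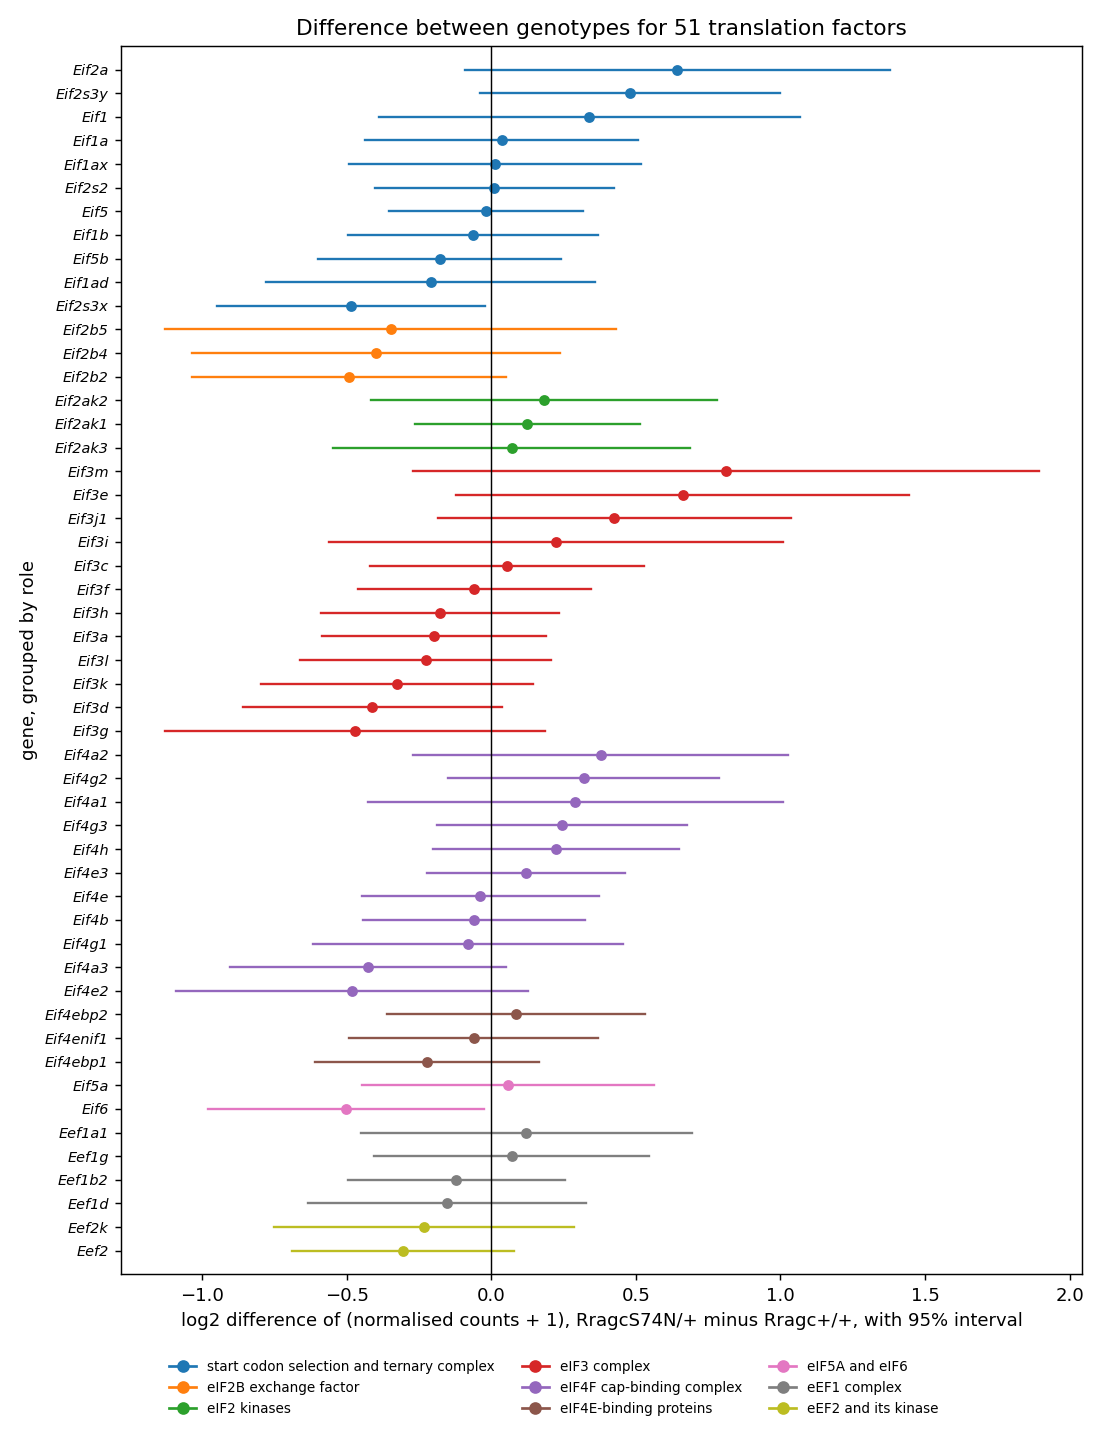
Log2 difference of normalised counts + 1 between genotypes (x axis, RragcS74N/+ minus Rragc+/+) for the 51 members tested, ordered by role (y axis, colours). Points are limma estimates and lines their 95% intervals; 2 intervals, those of Eif6 and Eif2s3x, lie wholly below 0, and the estimates run from -0.50 to 0.81.

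The size of change that could have been seen varied among members. The 95% interval of the log2 difference extended by 0.34 to 1.08 on either side, with a median of 0.48. It lay within a log2 difference of 1 in both directions for 38 of the 51 members, and within 0.5 for 9. A doubling or halving was thus outside the interval for these 38 members. For most members the interval reached a log2 difference of 0.5 in at least 1 direction. The intervals are not adjusted for the number of genes tested.

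The 4E-BP family, direct substrates of mTORC1, was examined first. Eif4ebp1 encodes 4E-BP1, the best studied of these repressors of eIF4E. It measured 236, 189, 170, 191 and 139 normalised counts in the 5 Rragc+/+ libraries and 146, 146, 150 and 186 in the 4 RragcS74N/+ libraries. All 4 mutant values lay inside the range of the controls, and the log2 difference was -0.22 ± 0.18 (SE; limma adjusted p = 0.741). Eif4ebp2, which encodes the second 4E-BP, measured 605, 298, 424, 419 and 313 in Rragc+/+ and 393, 489, 448 and 370 in RragcS74N/+. These also lay inside the range of the controls, with a log2 difference of 0.09 ± 0.21 (SE; limma adjusted p = 0.899). Eif4enif1 encodes the 4E transporter, which carries eIF4E into the nucleus, and it ranged from 66.2 to 80.4 in Rragc+/+ and from 46.0 to 86.2 in RragcS74N/+, a log2 difference of -0.06 ± 0.20 (SE; limma adjusted p = 0.931). Eif4ebp3 is not analysed here.

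Their target Eif4e was the member whose mutant libraries lay closest together among those named here. It measured 40.2, 72.4, 57.2, 54.7 and 51.1 normalised counts in Rragc+/+ and 53.7, 53.9, 51.2 and 52.3 in RragcS74N/+. The log2 difference was -0.04 ± 0.19 (SE; limma adjusted p = 0.960). The summed 4E-BP counts were 20.9, 6.73, 10.4, 11.2 and 8.84 times those of Eif4e in Rragc+/+ and 10.04, 11.8, 11.7 and 10.6 times in RragcS74N/+. The mutant ratios again fell inside the range of the controls, whose extremes were replicates 1 and 2.

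**Figure D2:**
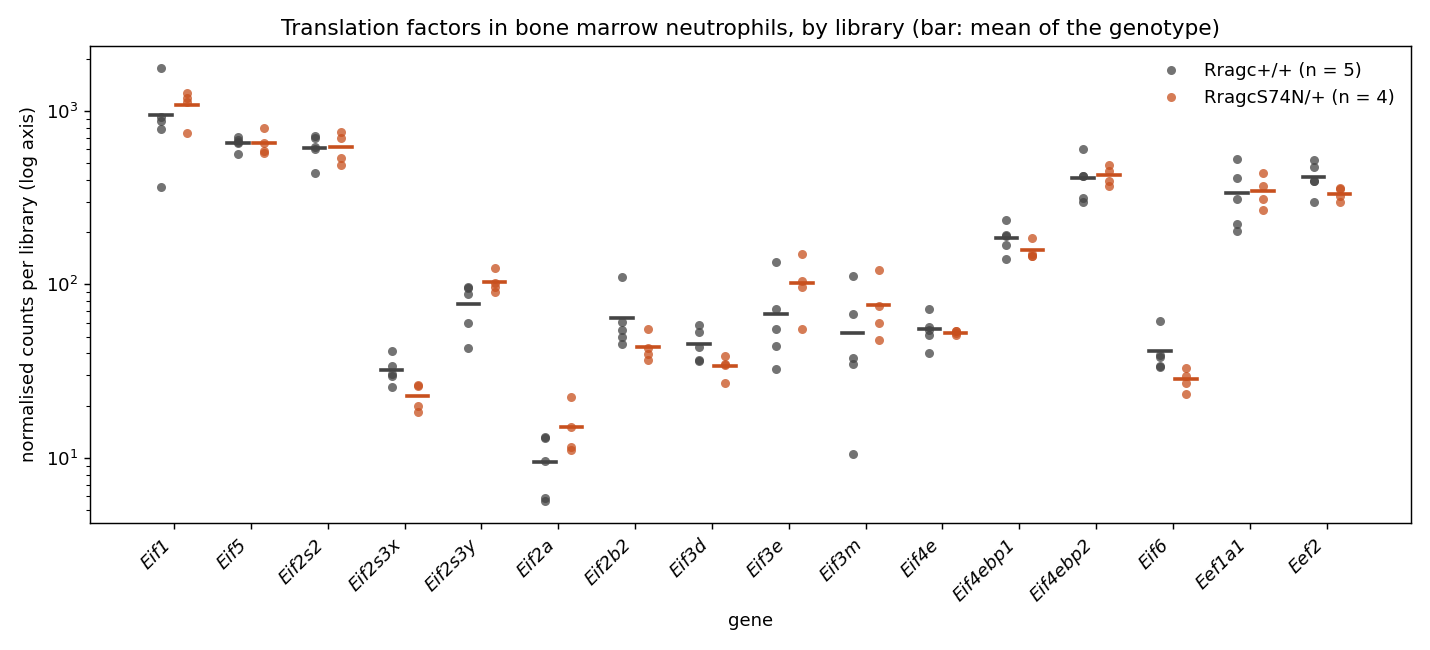
Normalised counts per library (y axis, log scale) of 16 translation factors (x axis), with Rragc+/+ in grey (n = 5) and RragcS74N/+ in orange (n = 4); points are libraries and bars the genotype means. The genotypes overlap for each gene shown except Eif6, and the lowest control point of Eif3m, 10.5, is Rragc+/+ replicate 2.

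Among the 11 tested members of the eIF4F complex and its helpers, 5 were below 0 and 6 above, from -0.48 to 0.38, and 0 passed the test. Of the scaffolds, Eif4g1 ranged from 29.1 to 73.2 in Rragc+/+ and from 40.8 to 61.8 in RragcS74N/+, a log2 difference of -0.08. Eif4g3, its paralogue, had a log2 difference of 0.25. Eif4g2, a relative that lacks the eIF4E-binding site and serves initiation without the cap-binding protein, measured 498, 261, 372, 518 and 584 in Rragc+/+ and 536, 486, 555 and 572 in RragcS74N/+. Its mutant libraries lay in the upper part of the control range, and the log2 difference was 0.32 ± 0.22 (SE; limma adjusted p = 0.721). The helicases Eif4a1 and Eif4a2 had log2 differences of 0.29 and 0.38, with ranges of 19.9 to 65.2 and 108 to 381 in Rragc+/+ that covered every mutant value. Eif4b, a cofactor of the helicase, differed by -0.06. Reads of Eif4a1, Eif5a and Eef1a1 are uncertain, because these genes have near-identical processed copies in the genome.

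The ternary complex and start codon factors held the most abundant members. Eif1, which keeps the scanning ribosome from stopping at a wrong codon, measured 1774, 366, 784, 872 and 917 normalised counts in Rragc+/+ and 741, 1130, 1180 and 1262 in RragcS74N/+. The controls alone spanned the full range, and Eif1 took from 5.53% of member reads in Rragc+/+ replicate 2 to 20.3% in Rragc+/+ replicate 1. Its log2 difference was 0.34 ± 0.34 (SE; limma adjusted p = 0.772).

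Eif5, the activator of GTP hydrolysis on eIF2, ranged from 563 to 709 in Rragc+/+ and from 569 to 794 in RragcS74N/+, with a log2 difference of -0.02 ± 0.16 (SE; limma adjusted p = 0.980). Eif2s2, the beta subunit of eIF2, ranged from 436 to 715 in Rragc+/+ and from 489 to 751 in RragcS74N/+, with a log2 difference of 0.01 ± 0.19 (SE; limma adjusted p = 0.993). Eif1, Eif5 and Eif2s2 together accounted for 30.9% of the reads of all members. Eif2a, which encodes a separate initiator-binding protein and not a subunit of eIF2, measured 13.2, 5.84, 5.62, 9.65 and 13.03 in Rragc+/+ and 22.5, 11.2, 15.1 and 11.5 in RragcS74N/+. Its genotypes overlapped, with a log2 difference of 0.64 ± 0.34 (SE; limma adjusted p = 0.713).

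The gamma subunit of eIF2 is encoded by a gene on each sex chromosome, and the copies differed in sign. Eif2s3x measured 29.6, 30.4, 33.7, 25.7 and 41.1 normalised counts in Rragc+/+ and 19.9, 18.3, 26.4 and 26.1 in RragcS74N/+. The genotypes overlapped through Rragc+/+ replicate 4, and the log2 difference was -0.48 ± 0.22 (SE; limma unadjusted p = 0.0417, adjusted p = 0.713). Eif2s3y measured 95.5, 43.2, 88.1, 60.3 and 96.3 in Rragc+/+ and 96.8, 102, 90.4 and 124 in RragcS74N/+. The genotypes overlapped here too, with a log2 difference of 0.48 ± 0.24 (SE; limma adjusted p = 0.713), and Rragc+/+ replicate 2 was lowest. Counts of the Y-linked gene were present in each of the 9 libraries.

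The ratio of Eif2s3y to Eif2s3x was examined after these values had been seen, and is given without a test. It was 3.22, 1.42, 2.61, 2.34 and 2.34 in Rragc+/+ and 4.87, 5.56, 3.43 and 4.76 in RragcS74N/+, so that each mutant library lay above each control. How often ratios of other gene pairs separate in this way was not computed. A second pair, Ddx3y and Ddx3x, which encode an RNA helicase of initiation and are not members, gave a ratio of 0.0636, 0.0706, 0.114, 0.0891 and 0.119 in Rragc+/+ and 0.100, 0.115, 0.0799 and 0.123 in RragcS74N/+. The genotypes overlapped for that pair.

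**Figure D3:**
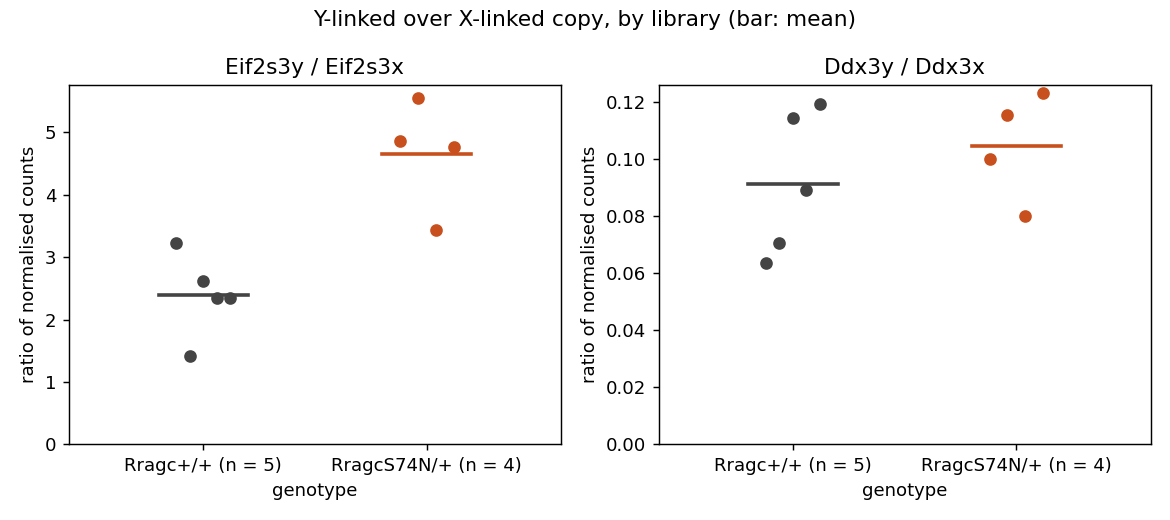
Ratio of the Y-linked to the X-linked copy in normalised counts (y axes) for Eif2s3 (left) and Ddx3 (right) by genotype (x axes); points are libraries and bars means. For Eif2s3 the controls run from 1.42 to 3.22 and the mutants from 3.43 to 5.56, whereas the genotypes overlap for Ddx3.

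The exchange factor eIF2B, which reloads eIF2 with GTP, and the kinases that block it by phosphorylating eIF2 were considered together. All 3 eIF2B subunits tested were below 0, where 46.6% of all genes were. Their log2 differences were -0.49 for Eif2b2, -0.40 for Eif2b4 and -0.35 for Eif2b5, and 0 passed the test. Eif2b1, which was too low to be tested, averaged 7.64 in Rragc+/+ and 11.4 in RragcS74N/+. Eif2b2, the beta subunit, measured 50.1, 111, 54.4, 61.1 and 45.1 in Rragc+/+ and 55.0, 39.6, 42.9 and 36.6 in RragcS74N/+. The genotypes overlapped, and the highest value was that of Rragc+/+ replicate 2 (difference ± 0.25, SE; limma adjusted p = 0.713). The kinases Eif2ak1, activated when haem is short, Eif2ak2, activated by double-stranded RNA, and Eif2ak3, the kinase of the endoplasmic reticulum stress response, had log2 differences of 0.13, 0.18 and 0.07. Eif2ak2 stood at 84.9 in RragcS74N/+ replicate 1 against 28.3 to 56.1 in Rragc+/+ and 32.5 to 47.0 in the other mutant libraries. Eif2ak4, the kinase that senses uncharged transfer RNA, is not analysed here.

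The 12 subunits of eIF3 listed did not move as a unit. Their log2 differences ran from -0.47 for Eif3g to 0.81 for Eif3m, with 7 below 0 and 5 above, and 0 passed the test. Eif3a, the core scaffold subunit, ranged from 109 to 164 in Rragc+/+ and from 107 to 137 in RragcS74N/+, a log2 difference of -0.20 ± 0.18 (SE; limma adjusted p = 0.751). Eif3d, a subunit that can itself bind the cap, measured 36.9, 58.4, 53.4, 43.4 and 36.1 in Rragc+/+ and 34.5, 38.6, 34.6 and 27.2 in RragcS74N/+. The genotypes overlapped through RragcS74N/+ replicate 2 and the lowest controls, with a log2 difference of -0.41 ± 0.21 (SE; limma adjusted p = 0.713).

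Eif3e and Eif3m, both subunits of its structural core, had the largest estimates above 0 of all members. Eif3e measured 72.4, 32.7, 44.1, 55.5 and 134 in Rragc+/+ and 55.0, 105, 96.4 and 150 in RragcS74N/+, a log2 difference of 0.66 ± 0.36 (SE; limma adjusted p = 0.713). Eif3m measured 67.8, 10.5, 37.5, 34.6 and 111 in Rragc+/+ and 47.7, 75.2, 60.3 and 121 in RragcS74N/+, a log2 difference of 0.81 ± 0.50 (SE; limma adjusted p = 0.713). For both genes Rragc+/+ replicate 2 was lowest, while Rragc+/+ replicate 5 and RragcS74N/+ replicate 4 were highest. The spread within a genotype thus exceeded the difference between them.

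Eif6 was the member with the smallest p-value. It encodes a factor that holds the large ribosomal subunit apart from the small one and is needed to make that subunit. Eif6 measured 33.6, 61.9, 33.7, 39.4 and 38.1 normalised counts in Rragc+/+ and 29.8, 23.4, 33.1 and 27.2 in RragcS74N/+. Each mutant library lay below each control, although the highest mutant value, 33.1, and the lowest control value, 33.6, were less than 1 read apart. The log2 difference was -0.50 ± 0.22 (SE; limma unadjusted p = 0.0411, adjusted p = 0.713), and without Rragc+/+ replicate 2 it was -0.35 (limma unadjusted p = 0.0991). Eif5a, the factor that relieves stalled ribosomes, ranged from 81.8 to 182 in Rragc+/+ and from 90.8 to 150 in RragcS74N/+, a log2 difference of 0.06 ± 0.24 (SE; limma adjusted p = 0.947).

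Elongation factors showed the same pattern of overlap. Eef1a1, which delivers aminoacyl-transfer RNA, measured 526, 223, 309, 203 and 410 in Rragc+/+ and 269, 369, 310 and 440 in RragcS74N/+, with a log2 difference of 0.12 ± 0.27 (SE; limma adjusted p = 0.890). Its exchange factor subunit Eef1b2 ranged from 256 to 354 and from 219 to 334, with a log2 difference of -0.12. Of the 4 eEF1 genes listed, 2 were below 0 and 2 above, and 0 passed the test.

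Eef2, the translocase, measured 472, 521, 395, 396 and 299 in Rragc+/+ and 296, 357, 352 and 323 in RragcS74N/+. Rragc+/+ replicate 5 lay among the mutant values and the other 4 controls above them, with a log2 difference of -0.30 ± 0.18 (SE; limma unadjusted p = 0.1103, adjusted p = 0.713). Its inhibitory kinase Eef2k ranged from 14.04 to 20.1 in Rragc+/+ and from 11.2 to 16.7 in RragcS74N/+, a log2 difference of -0.23 ± 0.24 (SE; limma adjusted p = 0.778). Of the 12 members with a TOP-like run in the promoter window, 10 were below 0, with a median of -0.14, and of the 29 tested members with a promoter but no run, 13 were below 0, with a median of 0.01. Among all tested genes with a promoter, 45.9% of those with a run and 47.1% of those without were below 0. Of the 10 members, 4 lay between -0.06 and -0.04, namely Eif4e, Eif3f, Eif4b and Eif4enif1, and 0 of the 12 passed the adjusted threshold. This split rests on a run definition chosen after the sequences had been seen. The 12 runs began between -15 and 15 bases from the annotated start, so a run need not lie in the messenger. A link between a run and the difference was not tested.

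Much of the spread lay between libraries of 1 genotype. The coefficient of variation over the 9 libraries had a median of 24.5% among members and ran from 8.96% for Eif4e3, a cap-binding relative of Eif4e, to 58.0% for Eif2s1. It was more than 3 times that of read counting for 14 members and under 1.5 times for 13. The first principal component of the 51 tested members held 58.8% of their variance and the second 12.4%. Rragc+/+ replicate 2 scored 4.64 at one end, and RragcS74N/+ replicate 4 and Rragc+/+ replicate 5 scored -2.26 and -2.24 at the other. The first component of all genes tested held 43.5% of variance and also had Rragc+/+ replicate 2 at one end and RragcS74N/+ replicate 4 at the other. Rragc+/+ replicate 2 was the lowest of the 9 libraries for 14 of the 53 members and the highest for 15, where it was lowest for 23.8% and highest for 25.1% of all listed genes. It was also the library with the fewest recovered reads.

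**Figure D4:**
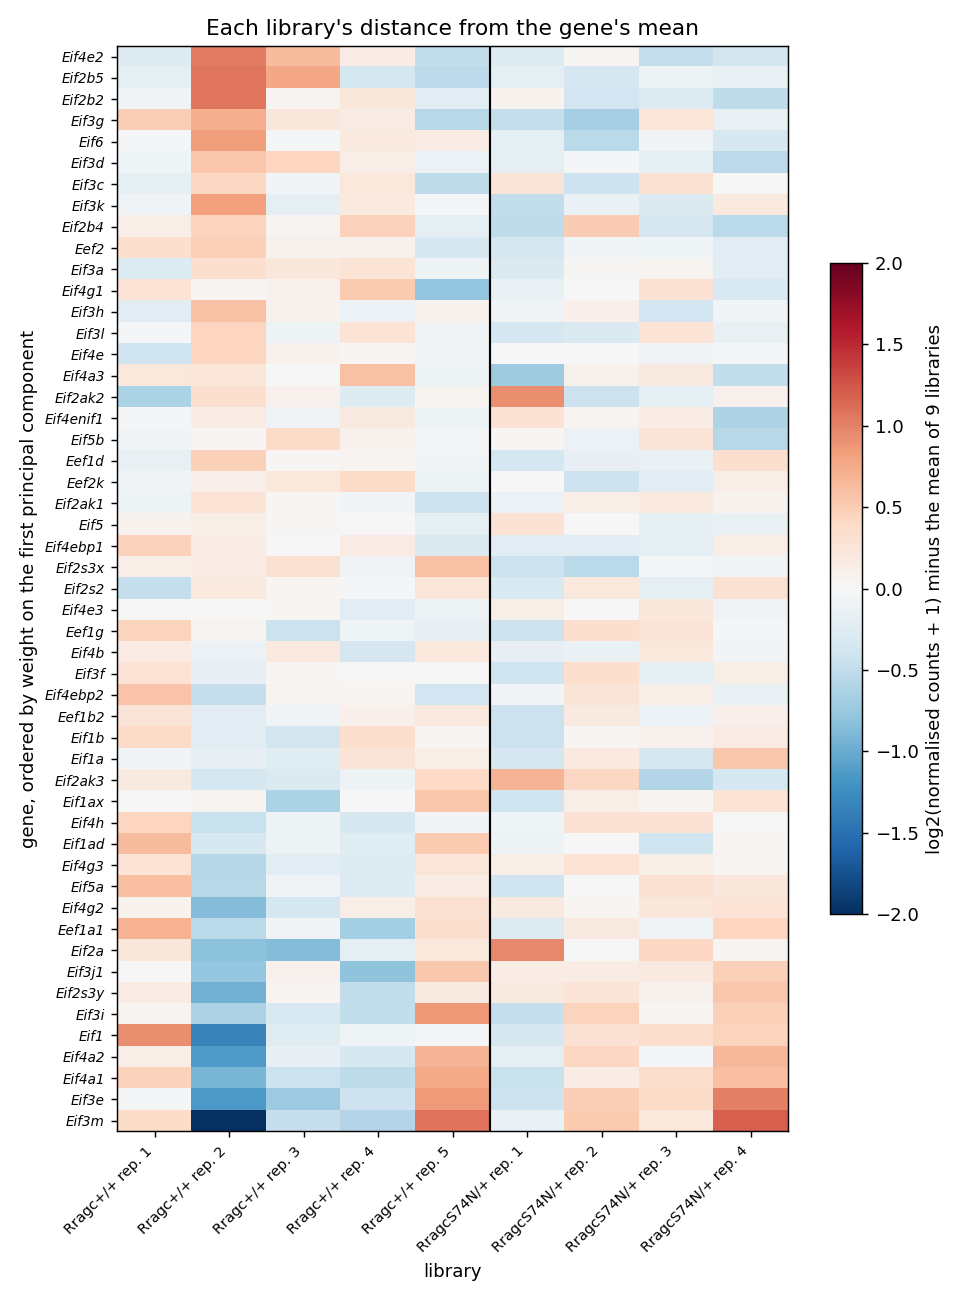
Distance of each library from the gene's mean over 9 libraries, in log2(normalised counts + 1) (colour scale, red above and blue below), for the 51 tested members (rows, ordered by weight on the first principal component) and the libraries (columns, with a line between genotypes). Rragc+/+ replicate 2 stands apart, with Eif4e2, Eif2b5 and Eif2b2 high and Eif3m, Eif3e and Eif4a1 low.

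Base composition of the transcript 3′ end, the stretch that is sequenced, moved with these differences. Over all tested genes with a known sequence, Spearman's correlation of a library's distance from the gene mean with GC content of the last 500 nucleotides was 0.07, 0.39, 0.25, 0.22 and -0.23 in Rragc+/+ and -0.41, -0.19, -0.02 and -0.23 in RragcS74N/+. It was above 0 in 4 of 5 controls and below 0 in each mutant library, as a description across genes that share a library. The GC content of the members had a median of 44.2% and that of all genes tested 43.0%. Of the 26 members at or above the members' median, 17 had a log2 difference below 0, with a median of -0.20, and of the 25 below it, 10 did, with a median of 0.04.

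With each library's trend on GC content removed, a calculation added after the data had been seen, 16 of these 26 and 15 of these 25 members were below 0, with medians of -0.12 and -0.05. The log2 difference of Eif6 became -0.24 (limma unadjusted p = 0.240) and that of Eif2s3x -0.61 (limma unadjusted p = 0.0109). Those of Eif2b2, Eif2b4 and Eif2b5 became -0.29, -0.16 and -0.19. Eif4g1, the member richest in GC at 59.2%, turned from -0.08 to 0.29. The correlation of the libraries with GC content was partly aligned with genotype, and its part in the differences above was not tested beyond these values.

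Translation genes outside the family were counted for comparison. Of 42 genes in the list, 32 were listed and 30 tested, with 13 below 0 and 17 above, a median of 0.01, and 0 with an adjusted limma p-value under 0.05. At an unadjusted limma p-value under 0.05 the list had 1 gene, against 5.81% of all genes tested. This was Ddit3, a transcription factor of the stress response downstream of eIF2 phosphorylation, with 70.5, 256, 136, 110 and 104 normalised counts in Rragc+/+ and 58.3, 67.1, 70.8 and 79.4 in RragcS74N/+. The genotypes overlapped through Rragc+/+ replicate 1, and the log2 difference was -0.84 (limma unadjusted p = 0.0124, adjusted p = 0.713). Rps6, a ribosomal protein phosphorylated downstream of mTORC1, ranged from 81.7 to 204 in Rragc+/+ and from 67.8 to 101 in RragcS74N/+, with a log2 difference of -0.54. The genes with the smallest p-values above 0 were Ppp1r15b, a subunit of the phosphatase that reverses eIF2 phosphorylation, with a log2 difference of 0.32, and Paip1, a partner of the poly(A)-binding protein, with 0.29. Neither passed the test. With edgeR on the recovered reads, Ddit3, Rps6 and Atf4, a transcription factor of the same stress response named here after its values were seen, had unadjusted p-values of 0.00717, 0.0369 and 0.0478, and 0 passed the adjusted threshold. Over all genes, 460 of the 6673 tested had an unadjusted edgeR p-value under 0.05. The limma log2 difference of Atf4 was -0.47.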

How the data were processed

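Alignment of the QuantSeq 3′ reads was done by the authors with TopHat2 on GRCm39, and strand-specific gene counting with HTSeq 0.6.1. The deposited values are a signal, gene counts that the authors divided by 1 size factor per library. The libraries carried molecular identifiers. Their use to collapse reads, and the choice of the listed genes, are not given in the sources used here, so counting error may understate noise. All values (100%) were whole multiples of 1 read within 0.01, which gave the recovered reads. Within a genotype, the 16 pairs of libraries differed beyond sampling noise (chi-square per degree of freedom at least 5.47), so no pair was merged, although repeat preparations of 1 mouse could differ as much. Genotypes came from the labels.

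A mean of 10 or more was required of a gene, and the test was limma 3.58.1 (R 4.3.3, trended moderation) on log2(value + 1), a scale that understates folds of low genes, with Benjamini-Hochberg adjustment over all genes tested and a threshold of 0.05. edgeR 4.0.16 and DESeq2 1.42.0 were run on recovered reads as alternatives; 8 genes had no adjusted p-value from DESeq2. Further alternatives changed the scaling, the pseudocount, the filter or array weights or left out each library in turn. The fit was tested on simulated data. GC content came from GENCODE transcripts of GRCm38, matched by symbol for 7067 of 7197 genes and all 53 members.

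Named members are the 4E-BP family, main subunits of each complex, the 4 with the smallest p-value in each direction, members without overlap and the 3 with the highest mean; outside the family, the 2 genes with the smallest p-value in each direction. Members and lists were chosen with earlier results of these data known.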

Additional observations from a re-analysis of the deposited data

Results flagged for a closer look

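Values of the named members, the members' share of reads and the recovered reads were screened within each genotype for a distant library, by the gap to the nearest library divided by the genotype's range. Of 64 groups screened, 3 held such a library, where chance gives about 1 in 20, or 3.2 here. Eif4ebp1 in RragcS74N/+ replicate 4 was 186 normalised counts against 146 to 150 in the other 3 libraries, a gap of 0.9002 of the range. Eif6 in Rragc+/+ replicate 2 was 61.9 against 33.6 to 39.4, a gap of 0.795, and Eif2b2 in the same library was 111 against 45.1 to 61.1, a gap of 0.758.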

How the results depend on the processing

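No member and no other gene passed the adjusted threshold under any of the 19 alternatives (0 throughout). Members with an unadjusted p-value under 0.05 numbered 2, and 0 with a mean of at least 50 required (Eif6 and Eif2s3x are then not tested) or with DESeq2, 1 with equal totals, 5 with array weights and 1 with the GC trend removed, which was added after the data were seen. Removal of 1 library gave 1 to 12: 12 without Rragc+/+ replicate 5, 4 without Rragc+/+ replicate 1, and 1 without Rragc+/+ replicates 2, 3 or 4 or RragcS74N/+ replicates 2 or 4. The same count over all genes moved too, from 388 of 6673 tested in the main fit to 769 of 6673 with array weights. It was 191 of 3475 with the mean of 50, 350 of 6679 with equal totals and 254 of 6556 with the GC trend removed. It was 907 of 6629 without Rragc+/+ replicate 5, 641 of 6679 without Rragc+/+ replicate 1 and 201 of 6648 without Rragc+/+ replicate 2. Without Rragc+/+ replicates 3 and 4 it was 224 of 6675 and 323 of 6681. Without RragcS74N/+ replicates 1, 2, 3 and 4 it was 309 of 6649, 256 of 6677, 413 of 6669 and 224 of 6650. Members without overlap numbered 1, 0 with the mean of 50 or equal totals, and 1 to 3 with 1 library removed (3 without Rragc+/+ replicate 5 or RragcS74N/+ replicates 2 or 3, 2 without Rragc+/+ replicate 4 or RragcS74N/+ replicate 1). With fewer libraries the genotypes separate more easily for any gene. The share over all genes was not computed for these removals, so a rise is not a result about the members. Of the 9 removals, Eif2s3x kept an unadjusted limma p-value under 0.05 in 5 and Eif6 in 3. The cause was not tested. The median over members stayed between -0.08 and -0.0013.

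With the GC trend removed Eif4g1 (0.29), Eif2s2 (-0.0079) and Eif2ak3 (-0.094) changed sign. Removal of 1 library turned the sign of Eif2s2 (-0.11 to 0.12), Eif4ebp2 (-0.019 to 0.24), Eif4e (-0.14 to 0.066), Eif2ak3 (-0.14 to 0.28), Eif5 (-0.12 to 0.042), Eif5a (-0.075 to 0.21), Eef1a1 (-0.034 to 0.31), Eif4g1 (-0.28 to 0.042), Eif2ak2 (-0.092 to 0.36) and Eif4enif1 (-0.17 to 0.13), none of which was called. No paired analysis was possible because replicates carry no number in the labels. Depth limits the members under 20 normalised counts most.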

Other observations

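Some factors are encoded by 2 close paralogues, whose levels per transcript end differed in each library. Eif4a2 ranged from 108 to 381 normalised counts over the 9 libraries, above Eif4a1 at 19.9 to 65.2, although the count of Eif4a1 is uncertain because of its near-identical processed copies. Eif1 ranged from 366 to 1774, above Eif1b at 139 to 244. Eif4ebp2 ranged from 298 to 605, above Eif4ebp1 at 139 to 236.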
